A study of Sus scrofa with 6 samples.

Results

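The piRNA pathway protects the germ line from transposons. PIWI proteins carry small RNAs, the piRNAs, to transposon transcripts, which are cut in the cytoplasm or silenced in the nucleus by DNA methylation. Much of the machinery gathers in germ granules, RNA and protein bodies that lie beside mitochondria or the nucleus of male germ cells, where RNA helicases and proteins with Tudor domains hold the PIWI proteins. Tudor domains bind arginines that the enzyme PRMT5 has methylated on their partners. Most of what is known of these genes in the testis comes from mice.

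The 10 genes described here are 2 PIWI genes (PIWIL2 and PIWIL4), 3 RNA helicase genes (DDX4, MOV10L1 and TDRD9), 3 Tudor scaffold genes (TDRD1, TDRD6 and TDRD7) and 2 other granule genes (ASZ1 and MAEL). They were taken by symbol from a table of 29884 pig (Sus scrofa) genes, and all 10 were found. RNA sequencing covered 6 libraries of testis cells that the labels call porcine primitive spermatogonia. The 3 RA libraries came from cells given all-trans-retinoic acid (RA) at 2 umol/L, a derivative of vitamin A that starts spermatogonial differentiation in mice. The 3 control libraries came from cells given 0.1% ethanol, and no ethanol level is given for the RA cells. The comparison asks how the RNA levels of this germ line machinery differ between cells given RA and control cells. The labels give no animal age, breed, culture time or purity. They also leave unsaid whether replicates were separate cultures or separate animals, so the p-values below reflect the spread among these 6 libraries alone, and that spread may be technical.

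Values are FPKM, fragment counts scaled to gene length and to library size, and changes are RA over control in log2(FPKM + 1), a scale on which the change of a gene with low values comes out too small. The libraries held between 62084199 and 87520891 reads, and each of the 10 genes had between 670 and 7581 reads in a library. All 10 passed the filter of a mean of 0.5 FPKM, as did 14567 genes in all. RA replicate 2 stood apart, with a mean correlation of 0.984 with the other RA libraries across genes, while that of every other library with its own group was at least 0.989. Transcripts typical of other testis cells were abundant in all 6 libraries. CLU, a gene abundant in Sertoli cells, the supporting cells of the tubule, was at 9727 ± 342 FPKM in RA and 9242 ± 233 FPKM in control (SD, n = 3 each, as in all such pairs below), while the germ cell gene DDX4 was at 5.005 ± 0.386 FPKM in RA and 7.10 ± 0.374 FPKM in control. In bulk RNA of this kind, fewer germ cells and less RNA per germ cell cannot be told apart.

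Part of the pathway was lower after retinoic acid. Of the 10 genes, 5 were called lower in RA, namely DDX4, ASZ1, PIWIL2, TDRD7 and TDRD6, with mean levels that fell by 22.8% to 29.5% (two-sided limma fit, adjusted p under 0.05 by Benjamini-Hochberg over all genes tested). Over all genes tested, 12.0% were called lower and 25.9% were called in either direction. By limma 0 of the 10 were called higher, as by edgeR and DESeq2 and at an unadjusted p under 0.05. In the same 5 genes every RA library lay below every control library, a pattern seen downwards in 24.0% and in either direction in 48.0% of all genes tested. The median log2 change of the 10 genes was -0.35, against -0.01 over all genes tested. The other 5 genes were not called, and 4 of them, PIWIL4, TDRD9, MOV10L1 and MAEL, had changes in mean level between -2.37% and -1.03%.

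**Figure D1:**
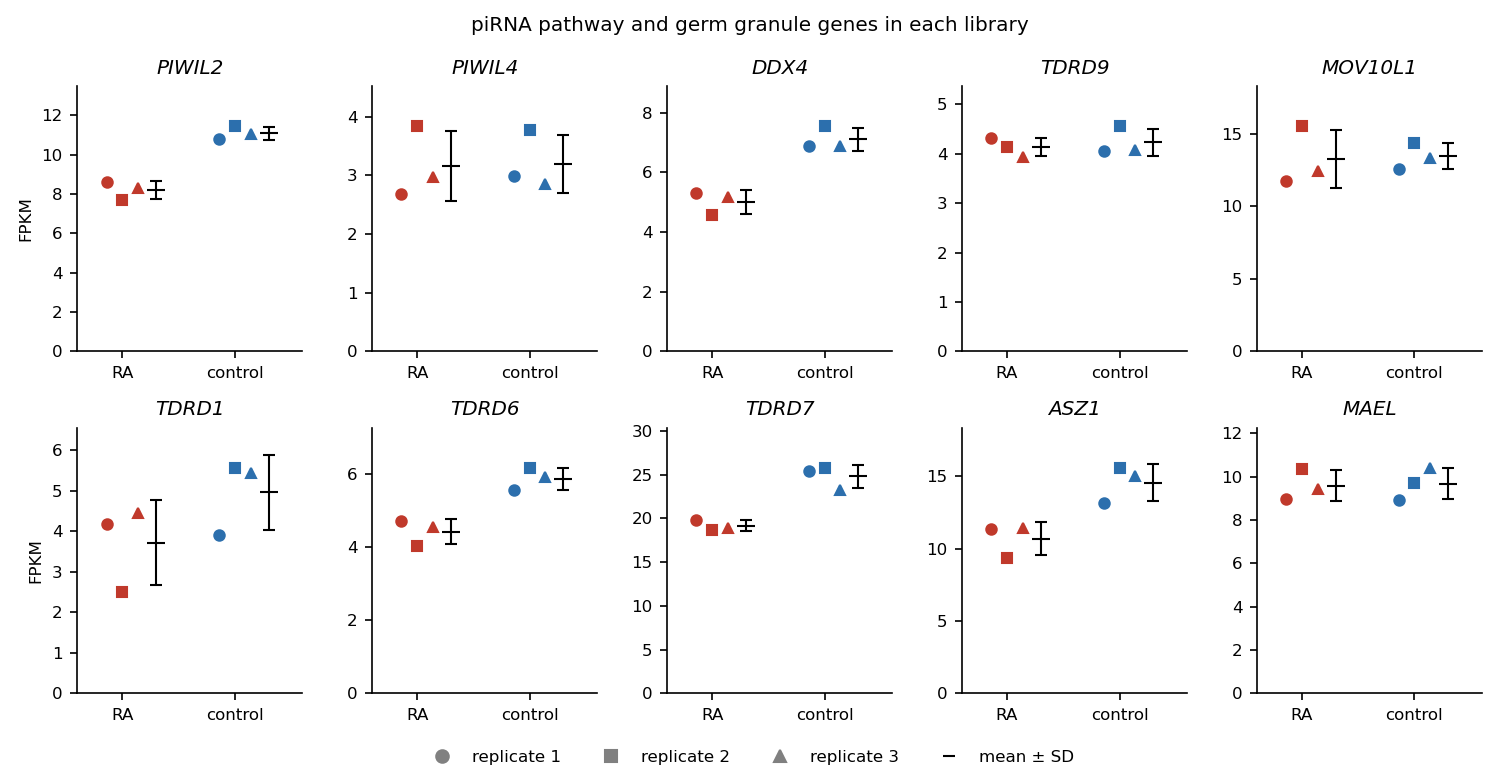
FPKM of each of the 10 genes in the 3 RA libraries (red) and the 3 control libraries (blue), with the mean and SD of each group beside the points. PIWIL2, DDX4, TDRD6, TDRD7 and ASZ1 show no overlap between groups, while PIWIL4, TDRD9, MOV10L1 and MAEL overlap throughout and TDRD1 overlaps through its low control replicate 1.

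Of the PIWI genes, PIWIL2 fell and PIWIL4 was not called. PIWIL2, which in mice is the cytoplasmic PIWI protein that cuts transposon transcripts, was at 8.59, 7.71 and 8.31 FPKM in RA replicates 1, 2 and 3, against 10.8, 11.4 and 11.03 FPKM in control replicates 1, 2 and 3. All RA libraries lay below all control libraries. PIWIL2 fell by 25.9% in mean level, and its log2 change was -0.39 ± 0.08 (SE; adjusted p = 0.00848 by limma), and the call held without each library in turn. PIWIL4, which in fetal mouse germ cells enters the nucleus and directs DNA methylation of transposons, was at 2.68, 3.83 and 2.98 FPKM in RA and 2.99, 3.76 and 2.84 FPKM in control. Replicate 2 was the highest in both groups, and the ranges overlapped. The log2 change of PIWIL4 was -0.02, with a 95% interval from -0.34 to 0.30 (limma adjusted p = 0.943). The ratio of PIWIL2 to PIWIL4 was 2.67 ± 0.608 in RA and 3.51 ± 0.430 in control, and these ratios overlapped between groups (exact permutation test, two-sided, p = 0.20, adjusted p = 0.33 over 18 ratios, where 3 against 3 libraries cannot go below 0.10).

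Among the helicases, DDX4 fell and the other two did not pass. DDX4 encodes the VASA helicase, the classical marker of germ granules and of germ cells. It was at 5.29, 4.57 and 5.16 FPKM in RA, against 6.89, 7.54 and 6.89 FPKM in control. The highest RA library lay well below the lowest control library. DDX4 fell by 29.5% in mean level, the largest percentage among the 10 genes, and its log2 change was -0.43 ± 0.09 (SE; adjusted p = 0.0113 by limma). Without control replicate 2 the adjusted p was 0.0577. MOV10L1, the helicase that feeds precursor transcripts into piRNA production in mice, was at 11.7, 15.5 and 12.4 FPKM in RA and 12.6, 14.4 and 13.3 FPKM in control. RA replicate 2 was its highest library and RA replicate 1 its lowest. Its log2 change was -0.03, with a 95% interval from -0.28 to 0.23 (limma adjusted p = 0.866). TDRD9, a helicase that also carries a Tudor domain and works with PIWIL4 in fetal mouse germ cells, was at 4.31, 4.14 and 3.94 FPKM in RA and 4.06, 4.55 and 4.08 FPKM in control, which overlap. The log2 change of TDRD9 was -0.03, with a 95% interval from -0.24 to 0.18 (limma adjusted p = 0.842). The ratio of DDX4 to TDRD9 was 1.21 ± 0.103 in RA and 1.68 ± 0.0213 in control, and that of DDX4 to MOV10L1 was 0.387 ± 0.0816 in RA and 0.529 ± 0.0164 in control. Neither ratio overlapped between groups (exact permutation p = 0.10 each, the smallest the design allows, and 0.18 adjusted over 18 ratios).

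All 3 Tudor scaffold genes had lower means in RA, and 2 passed the test. TDRD7, a component of the chromatoid body, the granule of round spermatids, that is also used in the lens, was the most abundant of the 10 genes. It was at 19.9, 18.7 and 18.9 FPKM in RA, against 25.5, 25.7 and 23.3 FPKM in control, with no overlap. Which cells made its transcripts cannot be read from bulk RNA. TDRD7 fell by 22.8% in mean level, and its log2 change was -0.36 ± 0.07 (SE; adjusted p = 0.00780 by limma), and the call held without each library in turn. TDRD6 is a chromatoid body scaffold with several Tudor domains. Its deposited length, to which FPKM is scaled, was the largest of the 10 genes at 7122 bases. TDRD6 was at 4.71, 4.04 and 4.54 FPKM in RA and 5.56, 6.16 and 5.91 FPKM in control. The groups did not overlap, and the log2 change was -0.34 ± 0.09 (SE, limma adjusted p = 0.0307). This call was the least stable of the 5. It was kept without RA replicate 2 (adjusted p = 0.0290) and lost without any other library (adjusted p from 0.0560 to 0.116), and it was also lost after a correction for gene length (log2 change -0.20, adjusted p = 0.118). TDRD1, which docks PIWIL2 at granules beside mitochondria in mice, was at 4.18, 2.52 and 4.47 FPKM in RA and 3.90, 5.55 and 5.43 FPKM in control. RA replicate 2 lay far below the other RA libraries and control replicate 1 below the other controls, so the groups overlapped. The log2 change of TDRD1 was -0.35, but its 95% interval ran from -0.80 to 0.10 (limma adjusted p = 0.210), and without RA replicate 2 the change was -0.15. The ratios of TDRD1 to TDRD6, TDRD1 to TDRD7 and TDRD6 to TDRD7 overlapped between groups (exact permutation p from 0.60 to 0.80).

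Of the 2 other granule genes, ASZ1 fell and MAEL did not pass. ASZ1, an ankyrin repeat protein of the outer mitochondrial membrane on which piRNA processing complexes assemble in mice, was at 11.3, 9.35 and 11.4 FPKM in RA and 13.1, 15.5 and 15.0 FPKM in control. All RA libraries lay below all control libraries. ASZ1 fell by 26.5% in mean level, and its log2 change was -0.41 ± 0.10 (SE; adjusted p = 0.0225 by limma). The adjusted p was 0.0950 without control replicate 2 and 0.0847 without control replicate 3. MAEL, or Maelstrom, a granule protein needed for transposon silencing in mice, was at 8.95, 10.4 and 9.43 FPKM in RA and 8.93, 9.73 and 10.4 FPKM in control. These values interleave, and the log2 change was -0.01 with a 95% interval from -0.22 to 0.19 (limma adjusted p = 0.924). The ratio of ASZ1 to MAEL was 1.13 ± 0.196 in RA and 1.51 ± 0.0799 in control, without overlap (exact permutation p = 0.10, adjusted p = 0.18).

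**Figure D2:**
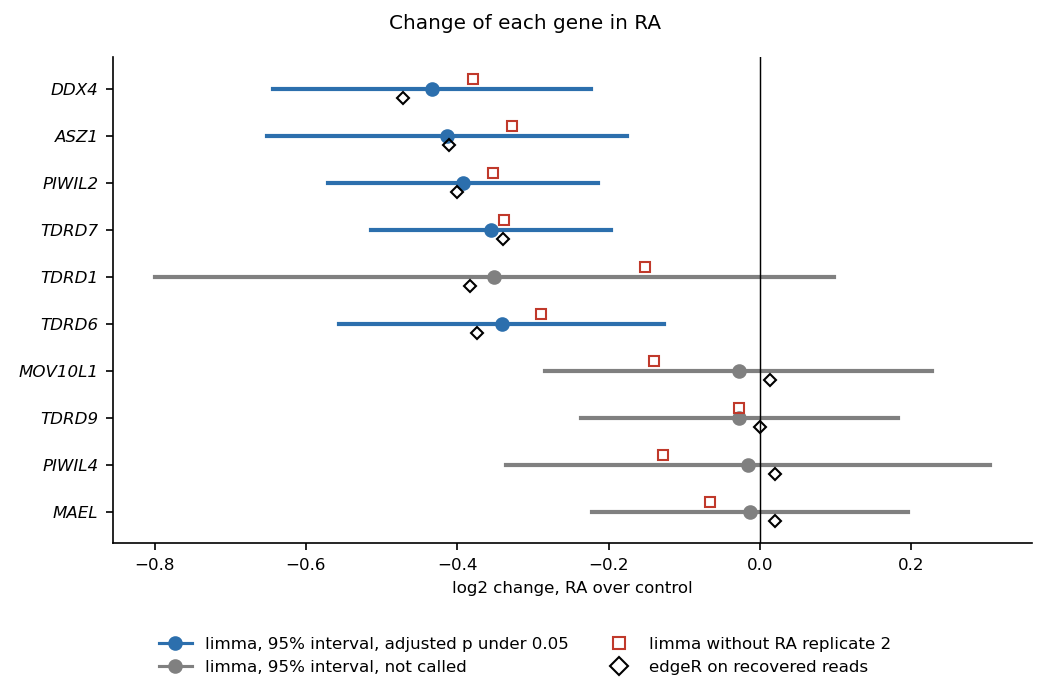
Log2 change of each gene in RA over control, with limma estimates and 95% intervals on the log2(FPKM + 1) scale (blue called lower, grey not called), limma estimates without RA replicate 2 (red squares) and edgeR estimates on recovered reads, which carry no added 1 (black diamonds). The 5 called genes lie between -0.34 and -0.43, TDRD1 lies beside them with a wide interval, and 4 genes lie within 0.03 of zero.

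RA replicate 2 lay at an end of the RA range in most of the 10 genes, as it did in most genes tested. It was the lowest RA library in 6 genes, DDX4, PIWIL2, TDRD1, TDRD6, TDRD7 and ASZ1, and the highest in 3, PIWIL4, MAEL and MOV10L1. Its level over the mean of the other RA libraries ran from 0.582 in TDRD1 to 1.36 in PIWIL4. Across all genes tested it was the lowest RA library in 38.3% and the highest in 46.5%, and among 24 somatic relatives described below it was the lowest in 17 and the highest in 7. Without RA replicate 2 the same 5 genes were called lower, and the log2 changes of PIWIL4, MAEL and MOV10L1 were -0.13, -0.07 and -0.14, none of them called. The direction of these 3 genes and of TDRD9 also turned positive under some alternatives, so no direction is given for them. The count of 5 became 2 when control replicate 2 was left out, and 3 when control replicate 3 was.

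The authors' deposited table of called genes held the same 5 genes. The authors' deposited table gives FDR values of 0.000848 for PIWIL2, 0.000978 for DDX4, 0.00556 for TDRD7, 0.00792 for TDRD6 and 0.0173 for ASZ1. It rests on the same libraries. edgeR on reads recovered from the FPKM values also called these 5 lower, with adjusted p-values between 0.0129 for PIWIL2 and 0.0467 for ASZ1, and called 7.85% of the genes it tested lower (17.6% in either direction). DESeq2 on these reads called the same 5, and 10.6% of the genes it tested lower (22.5% in either direction). These shares rest on 19942 genes for edgeR and 18794 for DESeq2, which include genes below the limma filter. Among the 14567 genes that limma tested, edgeR called 1437 lower and 1871 higher, and DESeq2 called 1777 lower and 2140 higher.

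The order of the levels, which FPKM allows because it is scaled to gene length, was led by TDRD7 and closed by PIWIL4 in both groups. In RA, TDRD7 (19.2 FPKM) led, followed by MOV10L1 (13.2), ASZ1 (10.7), MAEL (9.58), PIWIL2 (8.20), DDX4 (5.005), TDRD6 (4.43), TDRD9 (4.13), TDRD1 (3.72) and PIWIL4 (3.16). The ranges of neighbours in this order overlapped between ASZ1 and MAEL and for every step from DDX4 down. In control, TDRD7 (24.8 FPKM) led, followed by ASZ1 (14.6), MOV10L1 (13.4), PIWIL2 (11.1), MAEL (9.68), DDX4 (7.10), TDRD6 (5.88), TDRD1 (4.96), TDRD9 (4.23) and PIWIL4 (3.20). There, neighbours overlapped between ASZ1 and MOV10L1 and between TDRD1 and TDRD9. The summed level of the 10 genes was between 80.7 and 81.7 FPKM in RA libraries and between 94.3 and 104 FPKM in control libraries.

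In the coordinates of the deposited table, DDX4 lies on chromosome 16, 34879701 to 34983701, and PIWIL2 on chromosome 14, 6560402 to 6632524. TDRD7 lies on chromosome 1, 239285628 to 239368558, TDRD6 on chromosome 7, 41468589 to 41485146, and ASZ1 on chromosome 18, 28859140 to 28910927. All 10 genes had the same start and end in the RefSeq annotation of the pig assembly Sscrofa11.1, although the authors' build is not given in the sources used here. No other row of the table had one of the 10 as its best human match. Other genes overlapped MAEL, PIWIL4 and TDRD9 in position, with group means no higher than 0.706 FPKM, and none overlapped the 5 called genes.

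The rest of the pathway was read from a list of 30 further genes, of which 29 were in the table and 28 passed the filter. In this list 2 genes rose, 2 fell and 24 were not called (limma), against 13.9% of all genes called higher and 12.0% called lower. The list's median log2 change was -0.19. Among the 28 tested, the RA libraries lay wholly below control in 9 genes and wholly above in 2, against 24.0% and 23.9% of all genes tested.

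Both genes that rose encode the enzyme complex that prepares PIWI proteins for Tudor binding. PRMT5, the arginine methyltransferase, was at 29.5, 33.6 and 32.1 FPKM in RA, against 22.01, 20.7 and 21.8 FPKM in control, giving 0.54 ± 0.07 in log2 change (SE; adjusted p = 0.00151 by limma). WDR77, its obligate partner, was at 14.8, 14.0 and 15.0 FPKM in RA, against 8.33, 7.90 and 8.21 FPKM in control, giving 0.77 ± 0.07 in log2 change (SE; adjusted p = 0.000289 by limma). All RA values of both genes lay above all control values, and both calls held in all 19 alternatives. Both genes act in all cells, where the complex also methylates histones and splicing proteins. WDR77 overlaps ATP5F1 on the opposite strand (62.1 FPKM in RA, 56.6 FPKM in control, limma adjusted p = 0.291), and the strand setting of the counting is not given in the sources used here, so reads in the shared stretch cannot be told apart.

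The 2 genes that fell were TDRD12 and RANBP9. TDRD12, a Tudor and helicase protein that PIWIL4 needs for its piRNAs in mice, was at 7.77, 5.09 and 8.05 FPKM in RA, against 9.77, 11.1 and 10.8 FPKM in control, without overlap. Its log2 change was -0.56 ± 0.15 (SE, limma adjusted p = 0.0341), with adjusted p-values of 0.0695, 0.120 and 0.106 without control replicates 1, 2 and 3. RANBP9, a widely expressed scaffold protein that binds DDX4 in mice, was at 27.2, 21.4 and 29.1 FPKM in RA and 35.7, 37.0 and 34.6 FPKM in control. Its log2 change was -0.46 ± 0.11 (SE, limma adjusted p = 0.0189), with 0.0622, 0.0790 and 0.0546 without control replicates 1, 2 and 3. RANBP9 overlaps NOL7 on the opposite strand (14.2 FPKM in RA, 13.0 FPKM in control).

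Further genes of the list, PIWIL1 and RNF17, were named after their values were seen. PIWIL1, the PIWI gene of meiotic and later germ cells, was at 1.38 ± 0.497 FPKM in RA and 2.25 ± 0.226 FPKM in control (log2 change -0.47, limma adjusted p = 0.0688), and passed without RA replicate 3 (0.0334). RNF17, a Tudor protein needed for spermatid development in mice, was at 4.58 ± 1.06 FPKM in RA and 6.57 ± 0.519 FPKM in control (log2 change -0.46, limma adjusted p = 0.0594), and the authors' deposited table lists it lower with an FDR of 0.0374. The list's most abundant genes, the chaperone gene HSP90AA1 (570 ± 37.0 FPKM in RA, 586 ± 19.2 FPKM in control) and the nuclease gene SND1 (94.6 ± 6.49 FPKM in RA, 91.8 ± 1.48 FPKM in control), were not called (limma adjusted p of 0.709 and 0.668).

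**Figure D3:**
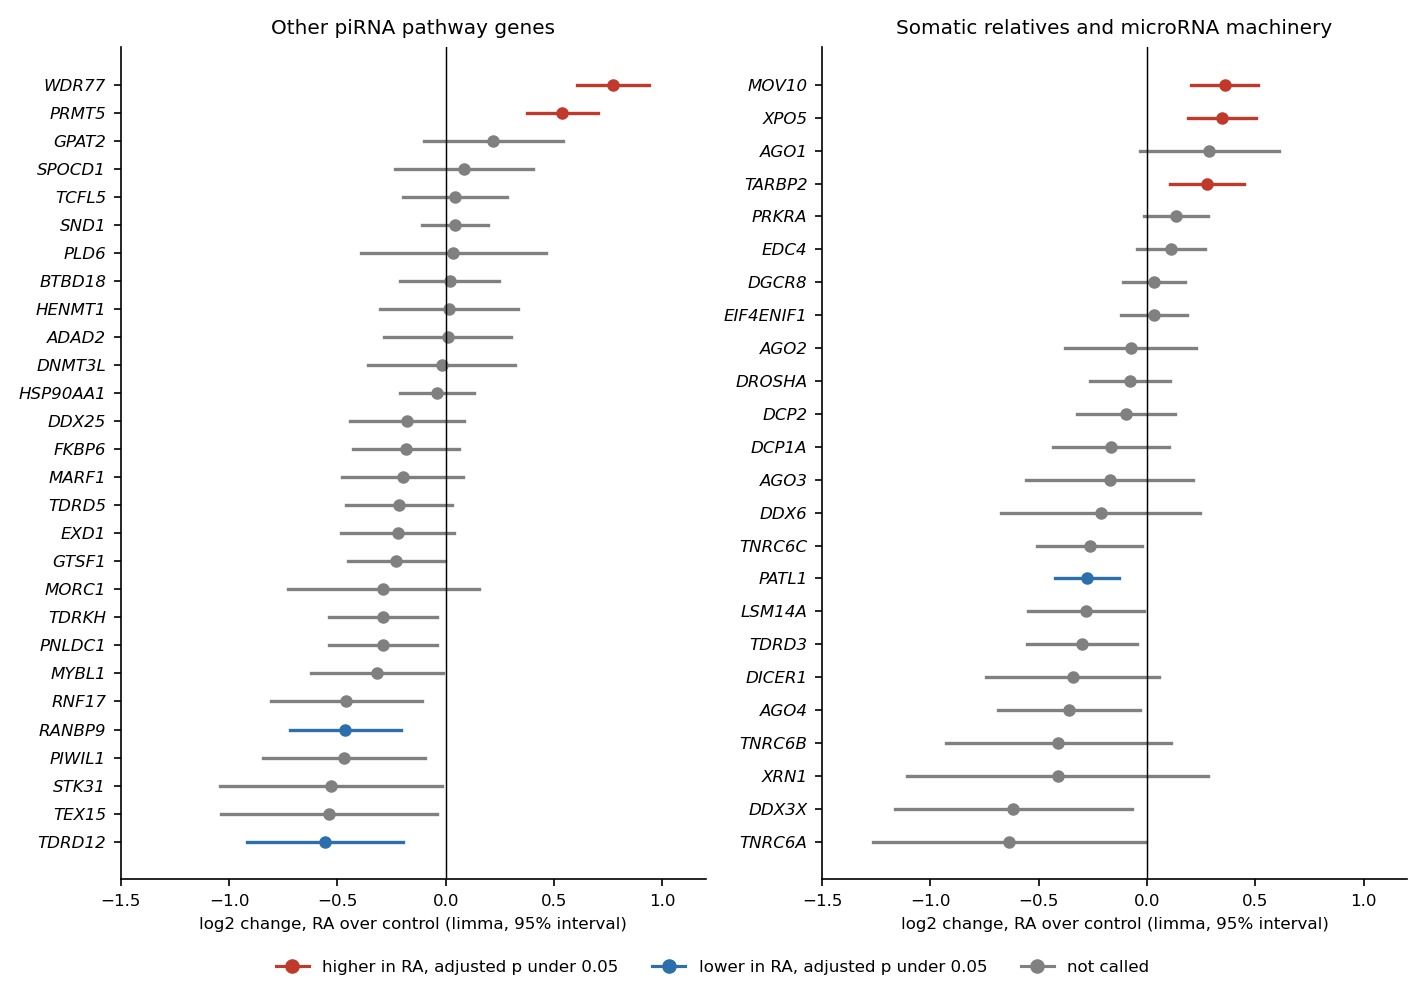
Log2 change in RA over control with 95% intervals (limma, log2(FPKM + 1) scale) for the 28 further pathway genes tested, left, and for 24 somatic relatives and microRNA pathway genes, right, with red called higher, blue called lower and grey not called. PRMT5 and WDR77 stand above the other pathway genes.

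Somatic relatives of the 10 genes and other genes not limited to the germ line gave a further comparison. Germ cells may also add to their values in bulk RNA. In a list of 24 genes of the microRNA pathway, processing bodies and the closest relatives of DDX4 and MOV10L1, 3 rose, 1 fell and 20 were not called (limma), with a median log2 change of -0.17. Over all genes tested, 13.9% were called higher and 12.0% lower. MOV10, the widely expressed relative of MOV10L1, was at 53.8, 60.5 and 57.5 FPKM in RA, against 42.4, 45.0 and 46.0 FPKM in control (log2 change 0.36 ± 0.07 SE, limma adjusted p = 0.00710). Its RA libraries all lay above its control libraries, whereas those of MOV10L1 interleaved. XPO5, which exports microRNA precursors, had a log2 change of 0.35 (limma adjusted p = 0.00877), and overlaps POLR1C on the opposite strand, which also rose (0.55, limma adjusted p = 0.00198). TARBP2, a Dicer partner, rose by 0.28 on the log2 scale (limma adjusted p = 0.0282, a call kept without RA replicate 2 or 3 and lost without each of the other 4 libraries, with adjusted p up to 0.0998), and the decapping factor PATL1 fell by 0.28 (limma adjusted p = 0.0165, a call lost without RA replicate 1, control replicate 1 or control replicate 3, with adjusted p up to 0.0673). DDX3X, the relative of DDX4 that all cells use and whose near-identical copy on the Y chromosome may share its reads, was at 35.8, 20.2 and 42.1 FPKM in RA and 43.6, 51.2 and 51.0 FPKM in control. Its RA replicate 2 was far below the rest, and its log2 change of -0.62 was not called with all libraries (limma adjusted p = 0.0916), but was called without RA replicate 2 at -0.32 (limma adjusted p = 0.0275).

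Some other germ cell genes moved in the same libraries. Of 20 germ cell markers outside the pathway 18 were in the table. Among them 8 fell, 1 rose and 9 were not called (limma), against 12.0% of all genes tested called lower and 13.9% higher. The genes not called were NANOS2 (log2 change 0.31), DND1 (0.20), SOHLH1 (0.10), SALL4 (0.04), TEX101 (-0.01), KIT (-0.15), TEX14 (-0.17), UCHL1 (-0.20) and DAZL (-0.26). The median log2 change of the 18 was -0.23. Their summed level was between 243 and 267 FPKM in RA libraries and between 303 and 311 FPKM in control libraries. Without UCHL1, the most abundant of them, the other 17 summed to between 144 and 154 FPKM in RA and between 184 and 187 FPKM in control. None of the 18 was at 0 in all libraries. DMRT1, a transcription factor that holds spermatogonia out of meiosis in mice, was at 8.98 ± 0.525 FPKM in RA and 15.3 ± 1.27 FPKM in control (log2 change -0.71 ± 0.09 SE, limma adjusted p = 0.00108). STRA8, which RA induces before meiosis, was at 3.29 ± 0.337 FPKM in RA and 1.01 ± 0.330 FPKM in control (log2 change 1.10 ± 0.14 SE, limma adjusted p = 0.00126). The other genes that fell were ID4, GFRA1, ZBTB16, ELAVL2, LIN28A, RBM46 and SYCP3, with log2 changes between -0.63 and -0.37. Among these 7, edgeR also called ID4, GFRA1, ZBTB16 and ELAVL2. Of the 6 fits that left out 1 library, ID4 and GFRA1 were called in 6, ZBTB16 and ELAVL2 in 4, RBM46 and SYCP3 in 2 and LIN28A in 1. The length correction ended the calls of GFRA1 (log2 change -0.27, adjusted p = 0.0972) and ZBTB16 (log2 change -0.27, adjusted p = 0.101). STRA8 overlaps LOC100525318 on the opposite strand (7.30 FPKM in RA, 6.71 FPKM in control). SYCP3 likewise overlaps CHPT1 (13.4 FPKM in RA, 13.7 FPKM in control). With the strand setting not given, reads in the shared stretches cannot be told apart. Bulk RNA does not show which cells made the transcripts of these markers, DMRT1 among them. The part of germ cell number in the changes of the 10 genes was not tested.

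**Figure D4:**
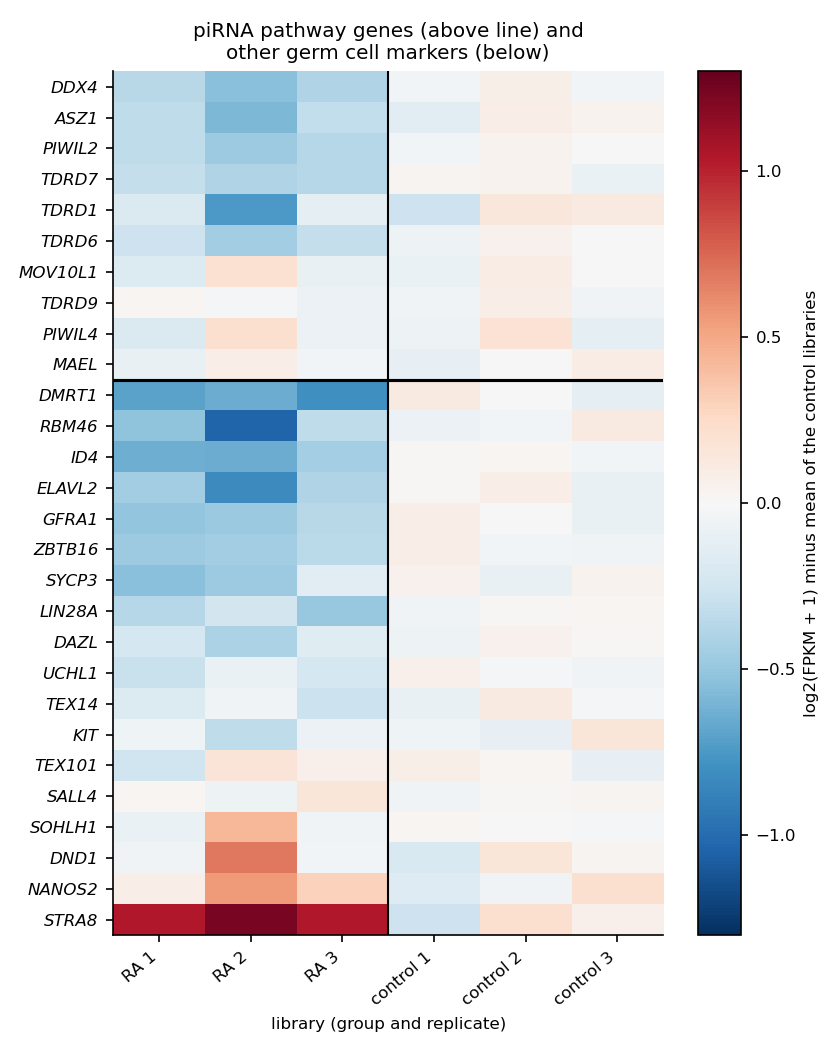
Level of each gene in each library as log2(FPKM + 1) minus the mean of the control libraries, with the 10 piRNA pathway genes above the line and 18 other germ cell markers below, ordered by their change in RA. DDX4, ASZ1, PIWIL2, TDRD7 and TDRD6 are below the control mean in all 3 RA libraries, TDRD1 is deepest in RA replicate 2, and DMRT1 and STRA8 stand first and last among the other markers by their mean change.

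The 10 genes were also set against DAZL, a germ cell RNA-binding protein gene outside the pathway, chosen after its values were seen. DAZL itself was at 16.0, 14.0 and 16.9 FPKM in RA and 18.0, 19.8 and 19.1 FPKM in control (log2 change -0.26, limma adjusted p = 0.0571). DDX4 over DAZL was 0.330, 0.326 and 0.305 in RA, against 0.383, 0.381 and 0.360 in control. The ratios to DAZL of PIWIL2, TDRD6 and ASZ1 also lay wholly below control, while those of TDRD7, TDRD1 and PIWIL4 overlapped. MAEL over DAZL was 0.558, 0.739 and 0.557 in RA, against 0.496, 0.493 and 0.542 in control. The ratios to DAZL of MAEL, TDRD9 and MOV10L1 lay wholly above control. Each of the 7 ratios without overlap had an exact permutation p of 0.10, the smallest the design allows, and an adjusted p of 0.18, so none passed.

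Markers of other testis cells changed beside them. Over all genes tested, limma called 13.9% higher and 12.0% lower. Of 15 Sertoli cell markers 3 rose and 9 fell (limma). Their summed level was between 10627 and 11459 FPKM in RA libraries and between 11255 and 11911 FPKM in control libraries. CLU made up most of these sums, and without it the other 14 summed to between 1253 and 1403 FPKM in RA and between 2248 and 2628 FPKM in control. Of 10 peritubular myoid cell markers, genes of the contractile cells around the tubule, 8 rose and 1 fell, with sums between 1683 and 1973 FPKM in RA and between 730 and 820 FPKM in control. ACTA2, smooth muscle actin, was at 786 ± 90.0 FPKM in RA and 225 ± 25.3 FPKM in control (log2 change 1.80 ± 0.11 SE, limma adjusted p = 4.11e-05). Of 7 Leydig cell markers tested of 8, 1 rose and 3 fell, with sums between 230 and 247 FPKM in RA and between 208 and 228 FPKM in control. Without CYP11A1, the most abundant of these, the Leydig sums were between 74.0 and 84.1 FPKM in RA and between 104.6 and 123 FPKM in control. Of 6 endothelial markers tested of 8, 2 fell (limma and edgeR; DESeq2 called these and TEK, which was below the limma filter) and 0 rose by any of these tools or at an unadjusted p under 0.05, with sums of 25.2 to 29.0 FPKM in RA and 28.3 to 30.6 FPKM in control. Of 8 macrophage markers 2 rose (3 by edgeR and 3 by DESeq2) and 0 fell by any of these tools or at an unadjusted p under 0.05, with sums of 45.5 to 67.4 FPKM in RA and 41.1 to 46.4 FPKM in control. The median log2 change was -0.36 for Sertoli, 0.67 for peritubular myoid, -0.01 for Leydig, -0.16 for endothelial and 0.19 for macrophage markers. That of the 10 genes was -0.35. None of these markers was at 0 in all libraries, and their part in the changes of the 10 genes was not tested.

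**Figure D5:**
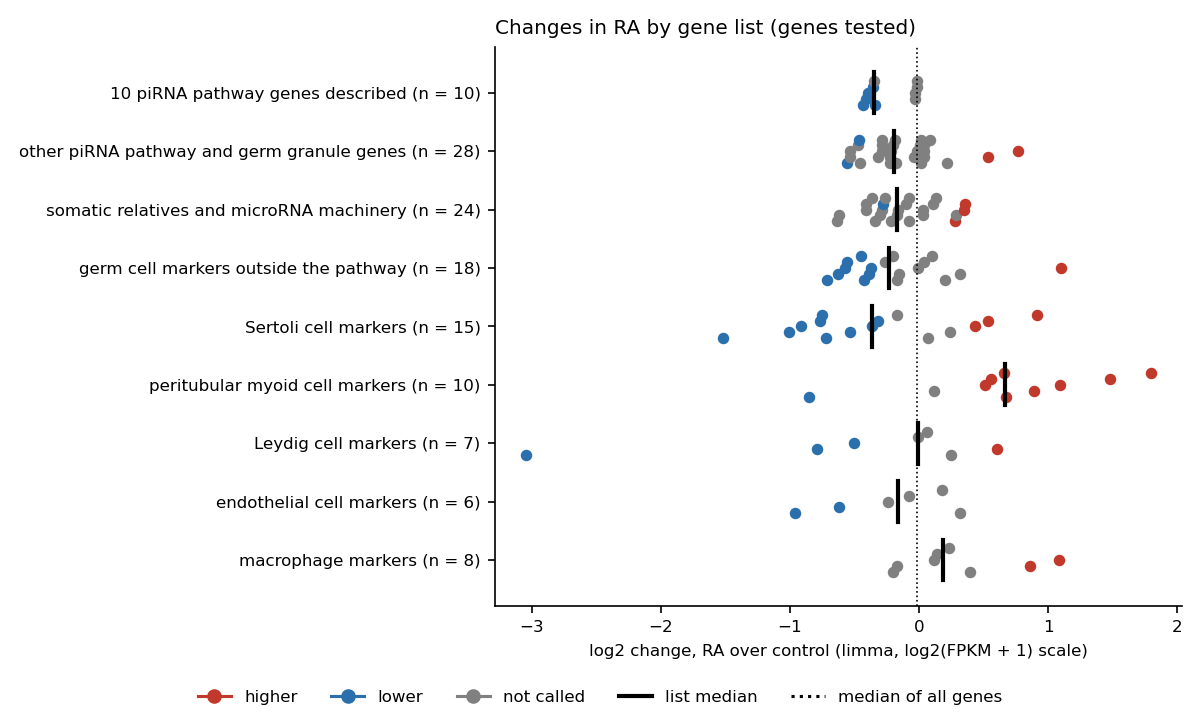
Log2 change in RA over control (limma, log2(FPKM + 1) scale) of each tested gene in the 10 genes and in 8 lists of pathway, somatic and cell type genes, with the median of each list (bar) and of all genes tested (dotted line at -0.01). Of the 10 genes 6 lie near -0.4 and 4 near zero with all libraries, but without RA replicate 2 TDRD1 (-0.15) lies beside MOV10L1 (-0.14) and PIWIL4 (-0.13), while the peritubular myoid list lies mostly to the right.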

How the data were processed

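The authors deposited FPKM values for every gene with a length and coordinates, per the file headers, and whole-number counts for the 4195 protein-coding genes in their table of calls, each beside its log2 fold change, p-value and FDR as the authors deposited them. Every deposited FDR is below 0.05. Gene length means the length deposited with the FPKM values, not the span of the coordinates. The sources used here give no aligner, counting tool, strand setting, build or test. A further deposited table, of non-coding genes, was not used here, and the in vivo and mouse comparisons in the series' text were not analysed here.

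FPKM is not a count, so the test was limma 3.58.1 (R 4.3.3) on log2(FPKM + 1) with a variance trend, group as the only term and a filter of mean FPKM 0.5, adjusted over all genes kept at a threshold of 0.05. Each library's total was estimated as the median, over genes in the table of calls, of the count divided by FPKM and length. Multiplying each FPKM by gene length and by its library's total returned reads that were whole to within 0.05 in 99.84% to 99.86% of non-zero values. edgeR 4.0.16 and DESeq2 1.42.0 were run on these recovered reads as alternatives, without 42 genes whose reads were not whole. Ratios between genes were compared by exact permutation over the libraries. Other alternatives were pseudocounts, filters, scalings, limma settings, a replicate block, each library left out, and, chosen after seeing the data, a lowess correction for gene length (span 0.3). The fits were also run on simulated reads that had the same dispersion for all genes and no library set apart. That setting differs from these libraries, so no conclusion is drawn from it.

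The 10 genes and the lists were chosen with earlier results of these data known. Text names the 10 genes, the 5 genes nearest in profile to DDX4 and, of the lists, some called genes and some of highest level or largest change. It says where a gene was named after its values were seen. Most called genes of the somatic cell type lists were counted and not described one by one. Of the somatic relatives, the abundant LSM14A and TNRC6A, the gene of largest change (log2 change -0.64, limma adjusted p = 0.120), were not described above and not called.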

Additional observations from a re-analysis of the deposited data

How the results depend on the processing

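Counts by limma with all libraries were 2019 genes higher and 1750 lower, 5 of the 10 genes lower, 2 further pathway genes higher and 2 lower, and 3 somatic relatives higher and 1 lower. Array weights gave 3410 and 3621 genes, 13 further pathway genes lower, and 5 somatic relatives higher and 8 lower. With the replicate block, 3 of the 10 genes (ASZ1 and TDRD6 had adjusted p-values of 0.0533 and 0.0770) and 1 further pathway gene were lower, and no filter also gave 1. DESeq2 and the length correction each gave 0 somatic relatives lower. Leaving out 1 library gave 1202 to 2258 genes higher and 1005 to 2256 lower, 2 to 5 of the 10 genes lower, 0 to 6 further pathway genes lower, and 2 to 4 somatic relatives higher and 0 to 3 lower. PIWIL2 and TDRD7 were called lower in 19 of 19 alternatives, DDX4 in 18, ASZ1 in 16 and TDRD6 in 12. The deviations of same-numbered RA and control libraries correlated at -0.21, -0.09 and 0.34, and those of other-numbered libraries at -0.37 to 0.37. With 3 libraries per group these values cannot decide whether same-numbered libraries share an origin.

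Sign changes were found in genes near zero. Leaving out 1 library gave log2 changes from -0.0659 to 0.0334 for MAEL, -0.140 to 0.0464 for MOV10L1, -0.128 to 0.0785 for PIWIL4, -0.0525 to 0.0163 for TDRD9, -0.0797 to 0.0122 for HSP90AA1 and -0.0135 to 0.0780 for SND1. With quantile normalization the log2 change was 0.0023 for MAEL, 0.0614 for PIWIL4, 0.0473 for TDRD9 and -0.0408 for SND1. edgeR gave 0.0194 for MAEL, 0.0129 for MOV10L1, 0.0198 for PIWIL4 and 0.000152 for TDRD9, and DESeq2 gave 0.0149 for MAEL, 0.0080 for MOV10L1 and 0.0151 for PIWIL4. The length correction gave 0.0211 for MOV10L1, 0.0200 for PIWIL4 and 0.0607 for TDRD9. Array weights gave 5.7e-05 for TDRD9 and 0.0199 for HSP90AA1, and called MOV10L1 lower (-0.18, adjusted p = 0.0455). The causes were not tested.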

Other observations

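Of the 10 genes, the nearest to DDX4 in profile over the 6 libraries was PIWIL2, with a root mean square difference of centred log2(FPKM + 1) values of 0.0317, followed by TDRD6 (0.0517), ASZ1 (0.0642) and TDRD7 (0.0664), while TDRD1, TDRD9, MAEL, MOV10L1 and PIWIL4 lay between 0.195 and 0.276. With the 10 genes left out, 12679 genes of at least 1 FPKM were compared. The 5 nearest were JCAD (0.0191), FBXO33 (0.0195), IGF2R (0.0198), ENTPD5 (0.0236) and DSP (0.0274), none of them in a list. All 5 lay nearer to DDX4 than PIWIL2 did, and the 10 genes were given no place in this order. Among the genes of the lists, the nearest were the Sertoli cell ligand gene GDNF (0.0836, place 296), RANBP9 (0.0841, place 300) and GFRA1, the receptor for GDNF (0.0892, place 365), while DAZL held place 446.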
